A study of Mus musculus with 6 samples.

Results

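The 10 genes described here carry dietary fat through the intestinal absorptive cell and out of it as chylomicrons, the large lipoproteins that the gut secretes into lymph. They are Apob, Mttp, Apoa1, Apoa4, Apoc2, Apoc3, Fabp1, Fabp2, Mogat2 and Dgat1, and they were chosen by their known roles. They are 10 of the 18193 genes measured. Each was read from the probe set that names that gene alone and had the highest mean over the 6 arrays, and 18 probe sets name the members in all. The mice were 3 mutants in which both the floxed Hnf4a allele (strain B6.129X1(FVB)-Hnf4atm1.1Gonz/J) and a Villin-Cre transgene, which is active in the gut epithelium, were combined, and 3 control littermates of the same strain label. Whether the controls carried Cre is not stated in the sources used here. All 6 animals were killed at 7 months of age after ketamine and xylazine, and RNA of the distal jejunum of each was hybridised to its own Affymetrix array. The labels call the tissue biopsies of total jejunum, so the RNA came from the whole wall and not from epithelium alone. In such tissue, fewer cells of a type and less RNA per cell cannot be told apart.

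Absorbed fatty acids and monoacylglycerol are bound inside the enterocyte by fatty acid binding proteins, and are joined again to triglyceride by monoacylglycerol and diacylglycerol acyltransferases at the endoplasmic reticulum. The microsomal triglyceride transfer protein then loads this fat onto apolipoprotein B as it is made, and smaller exchangeable apolipoproteins settle on the particle's surface. Hnf4a encodes a nuclear receptor which, in liver, is known to regulate genes for several of these proteins, apolipoproteins and Mttp among them.

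The promoters of 4 members are shown because they include the gene with the largest difference and the members whose window held the HNF4 core searched for. The sequences are RefSeq's, from build GRCm38.p6, and run 5′ to 3′ in the gene's direction over 250 bases before the start site and 50 after it. Capitals mark matches to CAAAGNNCA, the core shared by HNF4 sites and by direct repeats spaced by a single base, on either strand.
Fabp1, chr6:71199629-71199928, plus strand: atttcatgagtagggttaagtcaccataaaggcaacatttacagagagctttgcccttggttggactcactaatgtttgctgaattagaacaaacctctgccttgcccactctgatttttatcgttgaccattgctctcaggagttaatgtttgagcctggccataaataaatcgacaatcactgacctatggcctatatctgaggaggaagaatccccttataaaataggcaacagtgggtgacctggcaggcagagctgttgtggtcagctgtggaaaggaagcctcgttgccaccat
Apoa4, chr9:46240594-46240893, plus strand: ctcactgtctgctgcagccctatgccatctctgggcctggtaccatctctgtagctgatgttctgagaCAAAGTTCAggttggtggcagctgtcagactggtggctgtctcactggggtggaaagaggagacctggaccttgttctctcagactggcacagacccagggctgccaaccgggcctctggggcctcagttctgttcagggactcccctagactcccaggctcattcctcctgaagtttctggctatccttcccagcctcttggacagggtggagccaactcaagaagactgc
Apob, chr12:7977427-7977726, plus strand: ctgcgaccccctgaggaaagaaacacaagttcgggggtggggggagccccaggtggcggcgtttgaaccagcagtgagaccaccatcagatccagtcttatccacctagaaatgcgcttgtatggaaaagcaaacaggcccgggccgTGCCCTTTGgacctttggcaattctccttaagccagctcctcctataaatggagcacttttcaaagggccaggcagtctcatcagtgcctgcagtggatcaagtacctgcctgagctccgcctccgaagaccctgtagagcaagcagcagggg
Fabp2, chr3:122894822-122895121, plus strand: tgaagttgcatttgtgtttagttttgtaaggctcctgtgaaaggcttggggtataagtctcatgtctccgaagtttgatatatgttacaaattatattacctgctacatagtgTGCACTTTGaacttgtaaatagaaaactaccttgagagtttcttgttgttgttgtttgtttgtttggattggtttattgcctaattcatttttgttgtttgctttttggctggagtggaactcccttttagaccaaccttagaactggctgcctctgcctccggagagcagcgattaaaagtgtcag

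RefSeq's table matched 7 of the 10 members by symbol, all but Apoc3, Dgat1 and Mogat2. The core CAAAGNNCA was found in 3 of these 7 windows and in 6.36% of all 32851 promoters of the table. Its match in Apoa4 was CAAAGTTCA, beginning at base -182 from the start site. In Apob the match lay on the other strand and read TGCCCTTTG from base -103, and in Fabp2 it read TGCACTTTG from base -137. The narrower form CAAAGTCCA, each occurrence of which is also a match to the core, was in 0 of the 7 and in 0.475% of all promoters. For the GATA motif only the letters AGATAA were searched, likewise on both strands, and no other form of it. They were in 0 of the 7 and in 11.2% of all. These matches describe letters in a window and do not show binding.

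The array signals are log2 values as deposited, and array medians lay between 3.93 and 3.98. Hnf4a fell in the mutants, with a log2 signal of 8.83, 8.83 and 9.82 in mutants 1 to 3, against 11.82, 11.76 and 11.57 in controls 1 to 3 (difference -2.56 ± 0.25 SE, limma adjusted p = 0.00756). An epithelium list of 12 genes, among them those for villin and E-cadherin, had means of 11.86 to 12.09 in mutants and 11.82 to 11.90 in controls, with 0 genes called and 6 lower in mean. At an unadjusted p under 0.05, 3 of the 12 were higher and 0 lower. These were Elf3, Krt18 and the E-cadherin gene Cdh1, with differences of 0.63, 0.68 and 0.33 and every mutant above every control. Pancreatic acinar markers stood out in control 3, where the mean of 9 genes was 8.28, against 5.35 to 5.49 in the 5 other arrays. Fat markers stood out in mutant 2, where the mean of 7 genes was 8.65, against 6.44 to 7.16 elsewhere. Liver markers, which matter here since liver makes most of the same apolipoproteins, had list means of 3.37 to 3.48 in mutants and 3.51 to 3.54 in controls, below the median of every array. The brightest of them, Ttr, read 4.78 to 5.23 in mutants and 5.70 to 5.98 in controls, and albumin (Alb) read 2.89 to 3.22 in mutants and 3.06 to 3.20 in controls.

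None of the 10 members was called at an adjusted p under 0.05 in limma's test over all genes, 0 higher and 0 lower, while 0.528% of all genes were called. Of the 10, 9 had a lower mean in the mutants, as did 9688 of all 18193 genes. The median log2 difference of the 10 was -0.19, beside -0.01 over all genes. With 1 array left out, the median of the members ranged from -0.30 without mutant 2 to -0.15 without control 3. The sign of the smallest differences depended on scaling, since Apoa1 was 0.0039 under quantile normalization and Mttp, the 1 member with a higher mean, was -0.057 when arrays were centred on the epithelium list. At an unadjusted p under 0.05, 5 members were lower and 0 were higher, namely Fabp1, Dgat1, Apoc2, Apoc3 and Mogat2, where 6.85% of all genes were lower at that level. In 5 members, Fabp1, Dgat1, Apoc3, Mogat2 and Apoa1, all mutants lay below all controls, and 10.2% of all genes did so. Fabp1 was the 1 member that differed by more than 1.5-fold, as did 734 of all 18193 genes in either direction.

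**Figure D1:**
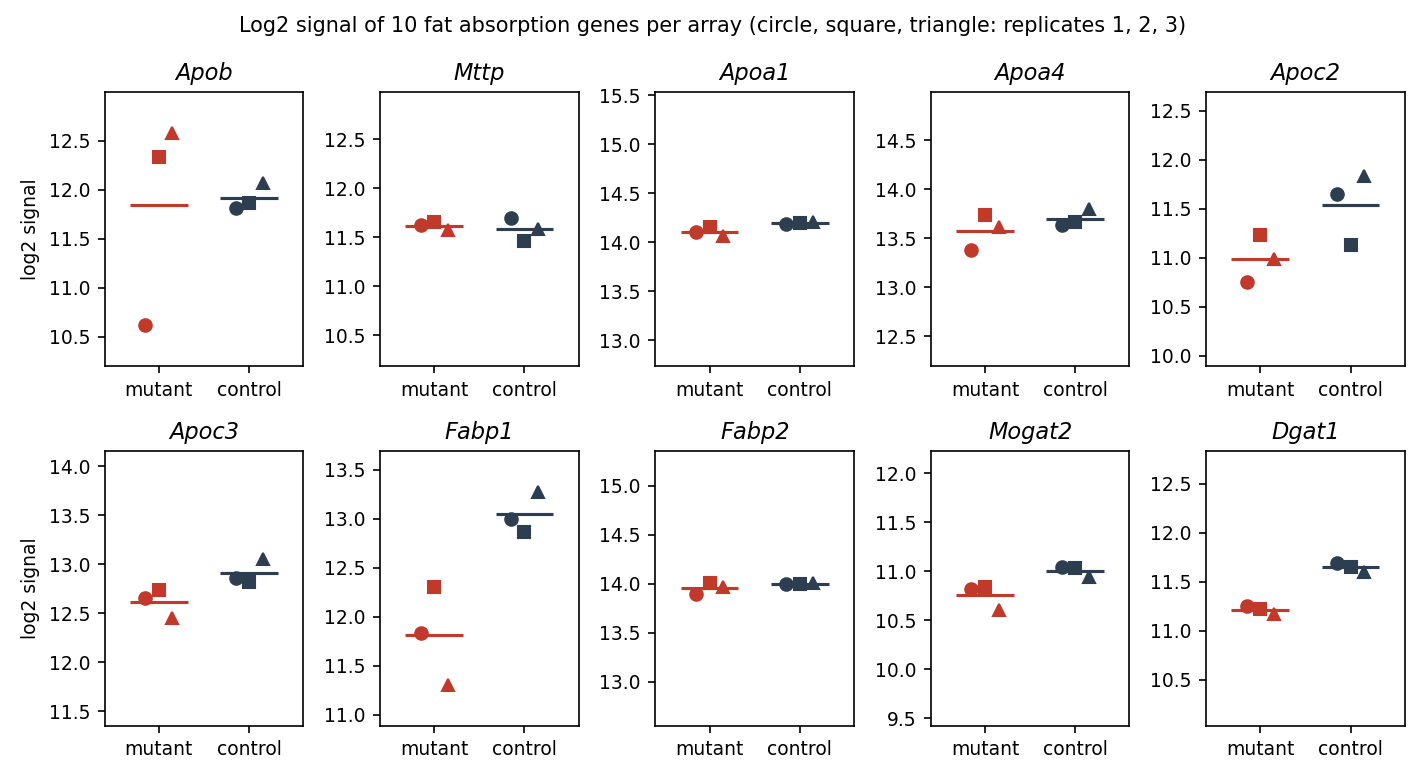
Log2 signal of each member (vertical axes, each spanning the same number of log2 units) in the 3 mutant and 3 control arrays, with horizontal lines at the group means and symbols for replicates 1 to 3. Fabp1 and Dgat1 were separated between the groups, Apob was spread widely among the mutants, and Apoa1 and Fabp2 lay almost level.

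Fabp1, the liver-type binding protein, which enterocytes and hepatocytes share, had a log2 signal of 11.83, 12.30 and 11.31 in mutants 1 to 3, against 13.00, 12.86 and 13.27 in controls 1 to 3. Every mutant lay below every control, and mutant 2 came closest to them. The mean was 11.81 ± 0.50 in mutants and 13.05 ± 0.21 in controls (SD, n = 3 each). The signal in mutants was 2.35-fold lower (log2 difference -1.23 ± 0.24 SE, limma adjusted p = 0.0798), or 42.6% of that in controls, with a 95% interval of 29.2% to 62.1%. By its unadjusted p, Fabp1 ranked 179th of all genes. Its second probe set read 11.26, 12.16 and 10.98 in the mutants, against 12.98, 12.75 and 13.48 in the controls, a difference of -1.60 ± 0.31 SE. Both probe sets placed the mutants in the same order, with mutant 3 lowest. Mutant 3 was also the one with the highest remaining Hnf4a signal, except at the dimmest Hnf4a probe set. There mutants 1 to 3 read 6.47, 6.05 and 6.03, so mutant 3 was lowest.

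Fabp2 is the intestinal-type binding protein. Its log2 signal was 13.90, 14.01 and 13.97 in mutants 1 to 3, against 14.00, 14.00 and 14.01 in controls 1 to 3. The groups overlapped, and the difference was -0.05 ± 0.09 SE with a 95% interval of -0.26 to 0.17 (limma adjusted p = 0.901). Fabp2 ranked between 6th and 12th among the probe sets of every array, at the top of the scale.

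The spread between arrays was smaller for the brightest genes. Over the 20 genes with the highest mean signal, among them Apoa1, Apoa4 and Fabp2, the median within-group SD was 0.06 and the median size of the difference between groups 0.05 on the log2 scale. Over the next 80 genes, Apoc3 among them, these were 0.08 and 0.09, over the 400 after those, which include Fabp1, 0.13 and 0.15, and over the rest 0.16 and 0.11. Whether signal this bright still follows RNA amount in proportion was not tested.

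**Figure D2:**
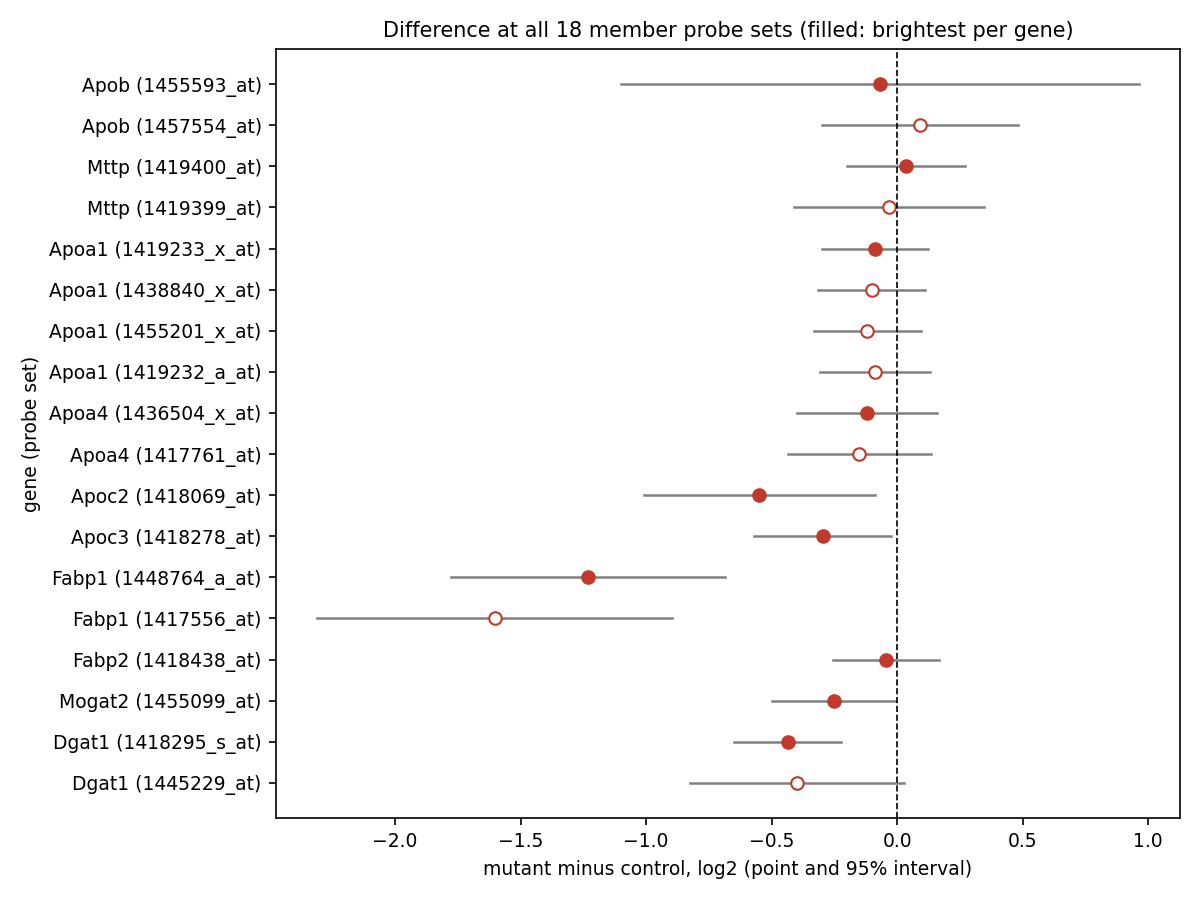
Mutant minus control log2 difference (horizontal axis) with its 95% interval for each of the 18 probe sets that name a member, filled for the brightest of each gene. Both Fabp1 probe sets lay at -1.23 and -1.60, both Dgat1 probe sets near -0.4, and the Apoa1, Apoa4, Fabp2 and Mttp probe sets close to 0.

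The enzymes of triglyceride synthesis were both lower in mean, with small spread. Dgat1, which makes triglyceride from diacylglycerol in the last step, had a log2 signal of 11.25, 11.23 and 11.17 in mutants 1 to 3, against 11.70, 11.65 and 11.60 in controls 1 to 3. The groups were well apart, and within each the arrays lay within 0.1 of each other. The signal in mutants was 1.35-fold lower (log2 difference -0.44 ± 0.09 SE, limma adjusted p = 0.105), or 74.0% of that in controls with a 95% interval of 63.8% to 85.8%. The dimmer Dgat1 probe set differed by -0.40 ± 0.18 SE with overlapping groups. Mogat2, the monoacylglycerol acyltransferase that starts the intestinal route, read 10.83, 10.84 and 10.61 in mutants 1 to 3, against 11.05, 11.04 and 10.94 in controls 1 to 3. It too was lower in each mutant than in any control, by 1.19-fold in the mean (log2 difference -0.25 ± 0.11 SE, limma adjusted p = 0.400).

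Apob and Mttp, the particle's structural protein and the protein that loads fat onto it, gave 2 patterns. Apob, the structural protein of chylomicrons, had a log2 signal of 10.62, 12.34 and 12.58 in mutants 1 to 3, against 11.81, 11.86 and 12.07 in controls 1 to 3. Mutant 1 lay below all controls, while mutants 2 and 3 lay above all of them. The group means, 11.85 ± 1.07 in mutants and 11.91 ± 0.14 in controls (SD, n = 3 each), therefore nearly coincided (log2 difference -0.07 ± 0.45 SE, limma adjusted p = 0.972), and the 95% interval of -1.10 to 0.96 leaves room for a change in either direction. Without mutant 1 the difference was 0.54 ± 0.13 SE (limma adjusted p = 0.145). The dimmer Apob probe set read 7.62, 7.80 and 8.05 in mutants 1 to 3, against 7.47, 8.02 and 7.70 in controls 1 to 3, so mutant 1 did not stand apart there.

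Mttp, the chaperone that transfers lipid to apolipoprotein B, did not separate the groups. Its log2 signal was 11.62, 11.65 and 11.57 in mutants 1 to 3, against 11.70, 11.47 and 11.58 in controls 1 to 3. The difference was 0.03 ± 0.10 SE (limma adjusted p = 0.938), with a 95% interval of 87.0% to 121% of the control signal. The other Mttp probe set differed by -0.03 ± 0.16 SE.

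The exchangeable apolipoproteins were all lower in mean, with 0 called. Apoc2, the cofactor that activates lipoprotein lipase, had a log2 signal of 10.75, 11.23 and 10.99 in mutants 1 to 3, against 11.65, 11.13 and 11.83 in controls 1 to 3. Control 2 lay among the mutants, so the groups overlapped (log2 difference -0.55 ± 0.20 SE, limma adjusted p = 0.318). With 1 array left out the difference ranged from -0.75 ± 0.17 SE without control 2 to -0.40 ± 0.21 SE without control 3 (limma adjusted p = 0.240 and 0.703). Control 3 is the array with the highest mean of pancreatic markers. Apoc3, which restrains the same lipase, read 12.65, 12.74 and 12.45 in mutants 1 to 3, against 12.85, 12.82 and 13.05 in controls 1 to 3. Here the groups did not overlap, but the closest arrays were less than 0.1 apart (log2 difference -0.30 ± 0.12 SE, limma adjusted p = 0.363).

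Apoa4, an apolipoprotein made chiefly by the gut and induced by fat, had a log2 signal of 13.38, 13.73 and 13.61 in mutants 1 to 3, against 13.63, 13.66 and 13.80 in controls 1 to 3. Mutant 2 lay within the control range (log2 difference -0.12 ± 0.12 SE, limma adjusted p = 0.770). Apoa1, the main protein of high density lipoprotein, which the gut also secretes, read 14.11, 14.16 and 14.06 in mutants 1 to 3, against 14.19, 14.20 and 14.21 in controls 1 to 3. All of its 4 probe sets had every mutant below every control, with differences of -0.09 to -0.12, yet none passed the test (limma adjusted p = 0.785 for the brightest). Its brightest probe sets, and the brightest of Apoa4, have names ending in x_at. That ending marks probes that may also match other transcripts. The 4 probe sets of Apoa1 are not independent measurements. Apoa1, Apoc3 and Apoa4 lie next to each other on chromosome 9, and their differences of -0.09, -0.30 and -0.12 had overlapping 95% intervals. For 5 pairs of members set against each other on the same arrays, the exact two-sided permutation p of the difference between their changes was 0.1 to 1, or 0.25 to 1 adjusted over the pairs. The smallest p that 3 against 3 arrays can give is 0.1, and the pairs were chosen with the values known.

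Across animals the members did not shift as a block. In mutants 1, 2 and 3, 9, 6 and 9 of the 10 members lay below the control mean, with medians of -0.29, -0.10 and -0.27. In controls 1, 2 and 3, 6, 7 and 3 members lay below it, with medians of -0.01, -0.04 and 0.06. Mutant 1 had the lowest Apob, Apoa4, Apoc2 and Fabp2 of all 6 arrays. Mutant 3 had the lowest Fabp1, Apoc3, Mogat2, Dgat1 and Apoa1, and at the same time the highest Apob.

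**Figure D3:**
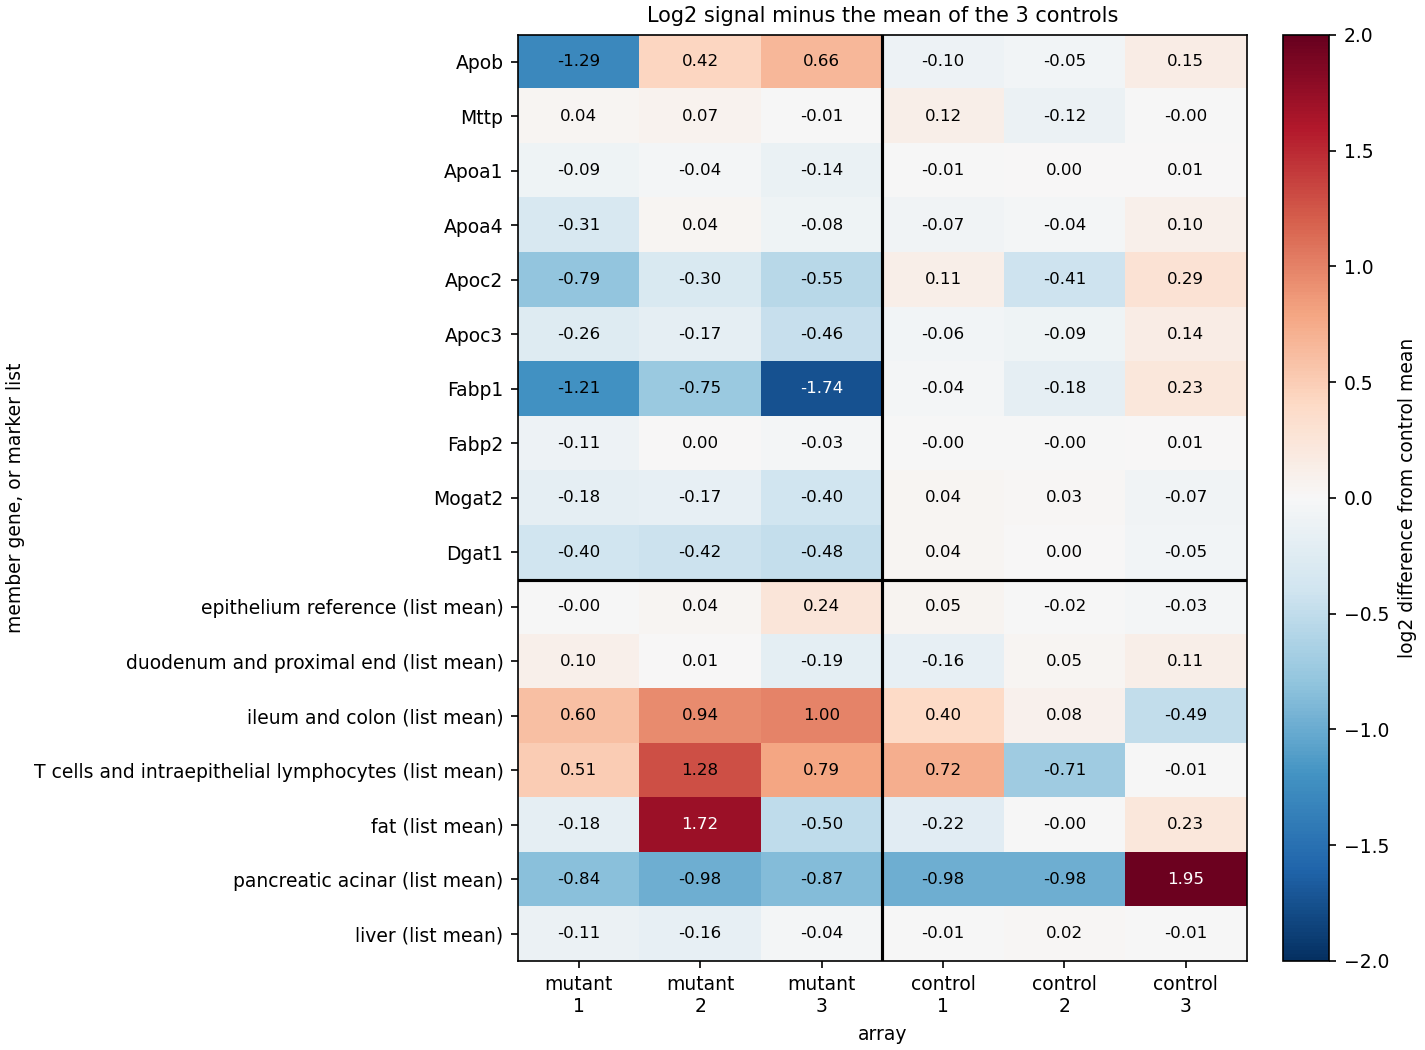
Log2 signal of the 10 members (rows above the line) and mean of 7 marker lists (rows below it) in each array, minus the mean of the 3 controls. Fabp1 was lowest in mutant 3 at -1.74, Apob lowest in mutant 1 at -1.29, fat markers stood out in mutant 2 at 1.72 and pancreatic markers in control 3 at 1.95.

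Markers of the distal gut differed with the groups in mean. All 9 measured genes of the ileum and colon list were higher in mean in the mutants, though 0 were called, and 3 of them, Slc51b, Slc10a2 and Fabp6, were higher at an unadjusted p under 0.05. The list mean was 7.17 to 7.56 in mutants and 6.08 to 6.97 in controls, and the summed level was 13.05 to 13.20 in mutants and 12.44 to 12.92 in controls on the log2 scale. Fabp6, the ileal bile acid binding protein of the same family as Fabp1 and Fabp2, read 9.57, 10.03 and 9.80 in mutants 1 to 3, against 9.15, 6.67 and 3.37 in controls 1 to 3 (log2 difference 3.40 ± 1.19 SE, limma adjusted p = 0.299). Slc10a2, the ileal bile acid transporter, read 3.99, 4.40 and 6.98 in mutants 1 to 3, against 3.31, 2.93 and 3.26 in controls 1 to 3 (log2 difference 1.96 ± 0.67 SE, limma adjusted p = 0.289). Slc51b, a subunit of the basolateral bile acid exporter, differed by 0.65 ± 0.18 SE (limma adjusted p = 0.202). In Fabp6, Slc10a2 and Slc51b alike, every mutant lay above every control. The colon markers Car1 and Hoxb13 lay below the median of every array. With the mean of that list as a covariate, an alternative chosen after seeing the data, the Fabp1 difference was -0.93 ± 0.43 SE (limma adjusted p = 0.9998). That mean did not overlap between the groups, so the fit can hardly tell the covariate from the group. The SE grew for other members too, for Mttp from 0.10 to 0.20, and all genes called fell from 96 to 2. No conclusion about Fabp1 can be drawn from this fit. The part of position along the gut in the differences of the members was not tested. Markers of the proximal end had list means of 5.24 to 5.54 in mutants and 5.28 to 5.54 in controls, with genes that differed in opposite directions. Of the 9 measured, 1 was called, Onecut2, a transcription factor gene of the proximal gut, which fell to 2.85, 3.04 and 2.91 in mutants 1 to 3, against 3.73, 3.78 and 4.07 in controls 1 to 3 (log2 difference -0.93 ± 0.12 SE, limma adjusted p = 0.0240), at signals near or below the array medians. Cck, the gene of the gut hormone cholecystokinin, had every mutant above every control (log2 difference 0.90 ± 0.21 SE, limma adjusted p = 0.135), and Gata4 had every mutant below.

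T cell and intraepithelial lymphocyte markers were likewise higher in mean in the mutants, for all 10 measured genes, with list means of 7.02 to 7.79 in mutants and 5.79 to 7.22 in controls. Their part in the members' differences was not tested. Without both mutant 2 and control 3, the arrays highest in fat and in pancreatic markers, Fabp1 differed by -1.36 ± 0.21 SE and Dgat1 by -0.46 ± 0.13 SE. The limma adjusted p was then 0.262 and 0.591, and all genes called numbered 4, against 96 with every array. Xist, which is expressed from the inactive X, and the Y-linked genes Kdm5d and Eif2s3y differed between animals within both groups: mutant 3 and control 1 were low in Xist and high in the Y-linked genes, and the other 4 arrays the reverse. Mutant 3 was also the array with the lowest Fabp1, while control 1 read 13.00, between the other controls at 12.86 and 13.27. The part of sex was addressed only by a covariate, given with the other alternatives. With it the Fabp1 difference was -1.24 ± 0.20 SE, against -1.23 ± 0.24 SE without it.

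The wider pathway was followed in 112 other measured genes on 7 lists. Hnf4a was the 1 gene called, and at an unadjusted p under 0.05 there were 13 lower and 7 higher of the 112, where 6.85% of all genes were lower and 5.24% higher at that level. Their median difference was -0.05. Without control 2 there were 0 calls among the 112, and without control 1 there were 2.

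Assembly and export of the particle held 30 of these genes, 0 called, with 4 lower and 1 higher at an unadjusted p under 0.05 and a median of -0.14. Prap1, whose product is known to promote lipid transfer by Mttp, read 11.61, 11.90 and 11.72 in mutants 1 to 3, against 12.31, 12.36 and 12.60 in controls 1 to 3 (log2 difference -0.68 ± 0.12 SE, limma adjusted p = 0.0745). Its groups did not overlap. Bet1, a SNARE of transport from the endoplasmic reticulum to the Golgi, differed by -0.56 ± 0.11 SE (limma adjusted p = 0.0769). Sec13, a coat protein of the vesicles on that route, differed by -0.64 ± 0.19 SE (limma adjusted p = 0.221).

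Triglyceride synthesis had 15 other genes, 0 called, 2 lower and 2 higher at an unadjusted p under 0.05, and a median of -0.01. Lipins make the diacylglycerol that Dgat1 uses on the glycerol phosphate route. Lpin3 read 6.06, 6.32 and 5.95 in mutants 1 to 3, against 6.81, 6.67 and 6.67 in controls 1 to 3 (log2 difference -0.61 ± 0.12 SE, limma adjusted p = 0.0907). Lpin2 differed by -0.63 ± 0.19 SE and Lpin1 by 0.67 ± 0.27 SE, the first with every mutant below every control and the second with overlapping groups. Agpat4, an acyltransferase of lysophosphatidic acid, differed by 0.73 ± 0.16 SE. Fatty acid uptake and activation had 13 genes, 0 called, 1 lower and 3 higher at that level, and a median of 0.06. The 3 higher include Fabp6, which is also on the ileum and colon list. Cd36, a fatty acid carrier of enterocytes and also of fat and endothelium, read 7.60, 8.36 and 7.26 in mutants 1 to 3, against 8.16, 8.76 and 8.70 in controls 1 to 3. Its groups overlapped through mutant 2, the array with the highest mean of fat markers (log2 difference -0.80 ± 0.28 SE, limma adjusted p = 0.299). The acyl-CoA synthetase gene Acsl3 differed by 0.55 ± 0.23 SE.

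The lists that remain held 12 genes of lipid droplets, 11 other apolipoproteins, 25 regulators and 6 genes of luminal fat digestion, in which Hnf4a was the only call. Medians were -0.12, -0.03, -0.06 and -0.10. Hsd17b11, a lipid droplet dehydrogenase, read 12.16, 12.10 and 11.91 in mutants 1 to 3, against 12.47, 12.49 and 12.45 in controls 1 to 3 (log2 difference -0.41 ± 0.10 SE, limma adjusted p = 0.158). Cidec and Lipa of the same list differed by 0.48 ± 0.24 SE and -0.22 ± 0.16 SE. Cidec is also on the list of fat markers. It read 7.89, 8.69 and 7.83 in mutants 1 to 3, against 7.80, 7.35 and 7.81 in controls 1 to 3. Every mutant lay above every control, and the highest was mutant 2, the array with the highest mean of fat markers. Clu differed by 0.79 ± 0.24 SE among the other apolipoproteins, where Apoh and Apoc4 differed by -0.40 ± 0.16 SE and -0.28 ± 0.13 SE at signals under 5. Among the regulators, Gata4 and Gata6, transcription factors of the gut epithelium, differed by -0.34 ± 0.10 SE and -0.29 ± 0.11 SE with no overlap between groups. Of these, only Gata4 is on the list of proximal markers. In the digestion list the pancreatic genes Cel and Pnliprp1 stood out in control 3 alone, and Clps differed by 0.17 ± 0.14 SE.

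**Figure D4:**
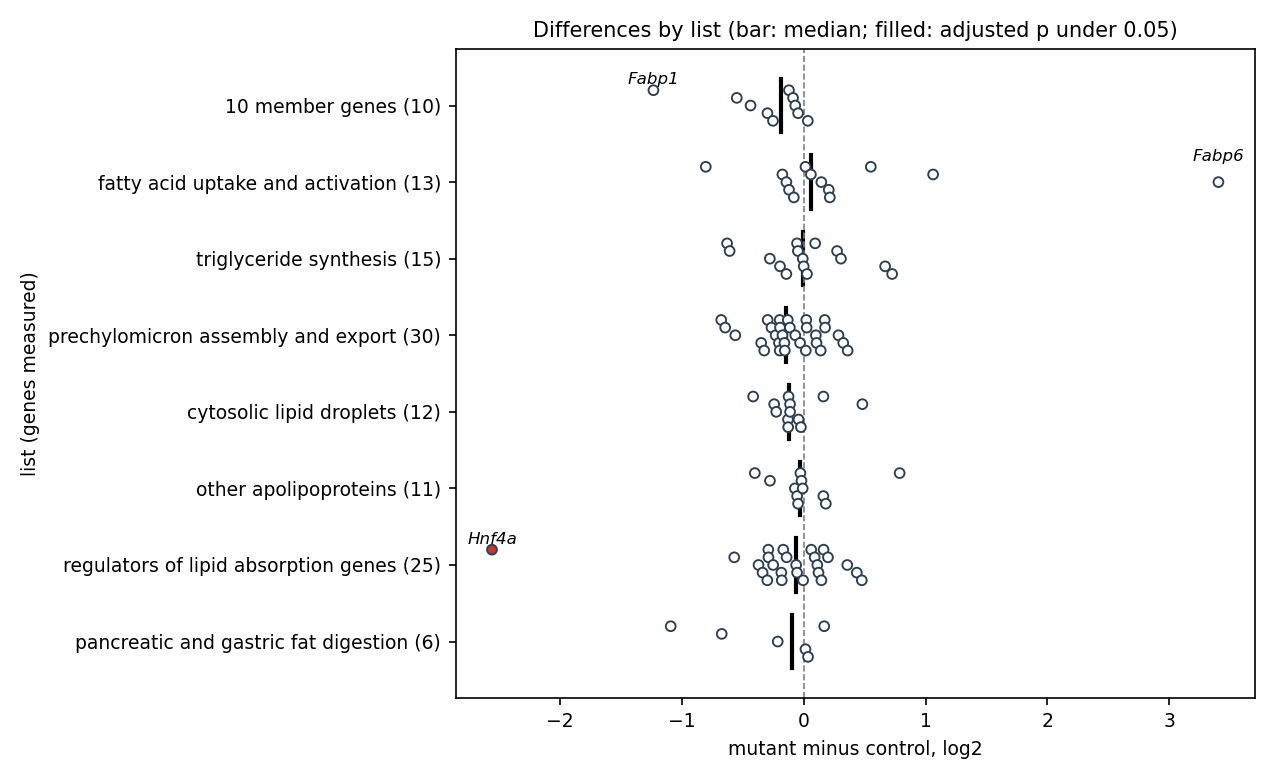
Mutant minus control log2 difference (horizontal axis) of the members and of 7 lists of other pathway genes, 1 point per gene, with a bar at each median. Hnf4a at -2.56 was the only filled point, which marks an adjusted p under 0.05, and most other genes lay within 1 of 0.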

How the data were processed

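Expression was measured in distal jejunum of 3 mutant and 3 control mice, 1 Affymetrix array per animal. The values are the log2 signals per probe set that the authors deposited. Background correction, summarisation and normalisation are not stated in the sources used here, and the scale was inferred from the range of values. Arrays had close medians and were used as deposited. Of 45101 probe sets, 64 controls were left out, 34945 have 1 symbol in the platform annotation, 932 several and 9160 none, and the brightest with 1 symbol stood for each of 18193 genes. All 10 members matched RefSeq by Entrez identifier. The series names no build, so the only coordinates are those of the RefSeq promoters.

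Groups were compared with limma 3.58.1 in R 4.3.3 (lmFit, eBayes), group as the only term, two-sided, with Benjamini-Hochberg adjustment over all genes and a threshold of 0.05. Folds, SE and 95% intervals come from that fit, and the number of arrays limits the precision. The procedure was tested on simulated data. Rank correlations between arrays were 0.980 to 0.987 with 0 duplicates. The members, lists and tests were chosen with earlier results of these data known. Genes named are all members, Hnf4a, called pathway genes and up to 3 genes per list with the smallest p. Of the marker lists, only genes that bear on a member are named, and Alb, Onecut2, Cck, Slc10a2, Slc51b, the sex-linked genes and, of the pathway lists, Lpin1 were chosen after their values were seen. Replicate numbers in the labels were checked for pairing (correlations of deviations 0.07, 0.07 and -0.02) and taken as names only.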

Additional observations from a re-analysis of the deposited data

How the results depend on the processing

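The 10 members were tested under 21 alternatives, 15 of them other than leaving out a single array. The count of members called was 0 in all but a pair of these. It was 1, Fabp1, with the mean of the Y-linked genes, high in mutant 3 and control 1, as a covariate (adjusted p = 0.0436) and at a threshold of 0.10. The Fabp1 difference stayed between -1.48 and -0.93, and that of Dgat1 between -0.53 and -0.36. With 1 array left out, Fabp1 ranged from -1.48 to -0.98 with adjusted p of 0.0566 to 0.337. Fabp1, Dgat1, Apoc2, Apoc3, Mogat2, Apoa4 and Fabp2 kept their direction in all 21.

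Directions reversed for small differences only, besides Apob. Apoa1 was 0.0039 under quantile normalization. Mttp was -0.057 with arrays centred on the epithelium reference, -0.023 with the ileum and colon covariate, and -0.023 to 0.093 with 1 array left out. Apob was 0.012 as the mean of its probe sets, 0.0071 with array weights, and -0.44 to 0.54 with 1 array left out, the highest being without mutant 1.

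Other pathway genes called, 1 as reported, numbered 0 with a floor at the 20th percentile, with no moderation of the variance, without control 3 and mutant 2 together, and with the ileum and colon covariate. They numbered 2 with trend and robust variance, 4 at a threshold of 0.10, and 0 to 2 with 1 array left out. All genes called, 96 as reported, numbered 11 with the floor, 2 with no moderation, 150 with array weights, 62 with the replicate block, 4 without control 3 and mutant 2 together, 196 with the Y-linked covariate, 248 at the threshold of 0.10, 2 with the ileum and colon covariate, and 22 to 96 with 1 array left out. With the replicate block, Fabp1 had an adjusted p of 0.149, and no member was called. The causes were not tested.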
